A study of Mus musculus with 4 samples.

Results

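Core CM1 nuclei are the cardiomyocyte nuclei that both deposited labels place in CM1: the final population label and the label transferred from an earlier reference. They numbered 5305 of the 8585 nuclei (61.8%, 95% Clopper-Pearson interval 60.8 to 62.8), and every nucleus meeting both labels was kept. The nuclei came from neonatal mouse hearts profiled by single-nucleus RNA sequencing, with 1 library for each combination of genotype and surgery. WT-MI and WT-Sham mice carried the floxed Nrf1 alleles alone (Nrf1 fl/fl), and KO-MI and KO-Sham mice carried the same fl/fl alleles plus αMHC-Cre, a recombinase driven by the promoter of Myh6, which is active in cardiomyocytes. In the MI groups the left anterior descending coronary artery was tied at postnatal day 3, the Sham groups had surgery without the tie, and tissue was taken 1 day later, at postnatal day 4. Below the plane of the ligature, tissue of 4 to 6 hearts of 1 genotype was pooled before nuclei were isolated, so each group is 1 pool and 1 library. The protocol gives the strain as C57BL/6, whereas the strain field of the labels changes number from sample to sample. With 1 library a group no difference has a replicate check, no test was made, and every interval covers counting error only.

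Ventricular cardiomyocytes are the contracting muscle cells of the lower heart chambers. Their beat rests on sarcomere proteins, on calcium released through the ryanodine receptor, on ion channels that shape the action potential, and after birth on a growing use of fatty acids as fuel. In the newborn mouse a part of them still divides, and after an infarction the stretched or hypoxic survivors are known to make natriuretic peptides and cytoskeletal stress proteins. Nrf1, encoded by Nfe2l1, is a transcription factor of the cap'n'collar family best known for raising proteasome genes and, through antioxidant response elements, protective enzymes.

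Levels are given as CPM, counts of a gene (UMIs) per 1000000 UMIs summed over core CM1 nuclei of 1 library, and 4 values in a row are always in the order WT-MI, KO-MI, WT-Sham, KO-Sham. The core held 1161 of 2003 nuclei in WT-MI (58.0%, 55.8 to 60.1), 1088 of 1848 in KO-MI (58.9%, 56.6 to 61.1), 934 of 1406 in WT-Sham (66.4%, 63.9 to 68.9) and 2122 of 3328 in KO-Sham (63.8%, 62.1 to 65.4). The shares of both Sham libraries were thus above those of both MI libraries, by more than the counting intervals. Counts summed to 4812901, 4410057, 3525610 and 5989719 UMIs. The median core nucleus held 4104, 4038, 3730 and 2653 UMIs and drew 5.08%, 5.04%, 6.13% and 8.66% of them from the mitochondrial genome, so the library labelled KO-Sham had the shallowest nuclei and the highest mitochondrial share. With 1000 UMIs drawn from every nucleus (1 had fewer), detected genes had close medians of 636, 641, 650 and 637. Of the cell barcodes in the core, 2 were shared by 2 libraries.

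Nfe2l1, the targeted gene (chromosome 11, 96817414 to 96829968, GRCm38), stood at 44.7, 57.4, 61.3 and 53.8 CPM in core CM1. Between the library labelled KO-MI and that labelled WT-MI its log2 ratio was 0.36 (95% interval 0.09 to 0.63), against the label, and between the library labelled KO-Sham and that labelled WT-Sham it was -0.19 (-0.44 to 0.07). In other populations the 2 ratios were 0.84 (0.10 to 1.61) and -0.28 (-0.92 to 0.37) in CM1 nuclei with the transferred label CM3, 0.06 (-0.41 to 0.52) and -1.14 (-2.02 to -0.28) in CM5, and -0.95 (-2.11 to 0.12) and -0.44 (-1.28 to 0.43) in CM4. The sign for the MI pair thus differed between populations, and all 3 were below 0 for the Sham pair. Which part of Nfe2l1 was removed and which part the tags cover are not given in the sources used here, so this check is weak. The libraries are therefore called by their labels throughout, and every direction between genotypes below rests on those labels.

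Core CM1 expressed ventricular genes, but their summed level was not higher there than in other nuclei. The 10 ventricular genes summed to 6047, 7181, 7818 and 11788 CPM in the core. Outside it they summed to 6643, 8271, 11676 and 13224 CPM, and in CM4 to 12189, 17287, 20917 and 17884 CPM. In the core Myl2, the ventricular regulatory light chain, stood at 2364, 2748, 3117 and 4991 CPM. Myl3, the ventricular essential light chain, stood at 2012, 2519, 2907 and 5270 CPM there. Of the atrial genes, Myl7, the atrial regulatory light chain, reached 8.73, 17.5, 7.09 and 11.2 CPM, Sln, which encodes sarcolipin, gave 3, 6, 2 and 5 UMIs in all, and Bmp10 gave 0, 0, 0 and 1. Hcn4, the pacemaker channel, gave 5, 11, 9 and 10 UMIs. Sln, Bmp10 and Hcn4 were thus at or near 0 in every library, whereas other genes of the atrial and conduction lists were not. The 12 atrial genes summed to 192, 241, 254 and 229 CPM in the core and 283, 478, 219 and 219 CPM outside it, and included Kcnj3 at 65.9, 64.6, 143 and 115 CPM. The 12 conduction system genes summed to 138, 147, 128 and 110 CPM in the core and 76.4, 95.3, 86.4 and 88.6 CPM outside it, and included Cacna1g and Etv1, a transcription factor of fast conduction, at 20.6, 17.2, 35.7 and 32.6 CPM.

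The 6 genes given as markers of CM1 set the core apart only in part. Asb14, an adaptor of a ubiquitin ligase, stood at 19.9, 17.0, 84.8 and 49.8 CPM in the core and at 11.8, 5.42, 43.2 and 37.9 CPM in all other nuclei. Acss3, a mitochondrial enzyme that activates short fatty acids, stood at 22.2, 23.1, 99.6 and 78.6 CPM against 12.1, 11.5, 53.5 and 55.8 CPM. Both were higher in the core than outside it in each of the 4 libraries, as were Rxfp1, the receptor for relaxin, with log2 ratios of 1.44, 1.38, 0.50 and 1.08, and Ryr2, the calcium release channel, with 0.63, 0.62, 0.41 and 0.33. Pm20d1, a secreted enzyme that makes N-acyl amino acids, had ratios of 0.68, 1.90, -0.13 and 1.25. Myh6, the main myosin of the mouse heart, had 0.38, 0.33, -0.20 and -0.03, so these 2 markers were not higher in every library. None of the 6 was at least 1.5-fold higher in all 4 libraries. The labels were themselves made from the expression of these nuclei, so a difference between the core and other nuclei is a description and was not tested.

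Among 9914 genes with at least 200 UMIs over all nuclei, 21 (0.212%) were at least 1.5-fold higher in core CM1 than in the other nuclei of the same library in all 4 libraries, and 95 (0.958%) were at least 1.5-fold lower. KO-Sham limited both counts, which became 120 and 175 when it was left out, and the first became 34 without KO-MI. The genes that led the core included ion channel, guidance receptor and matrix genes. Fgf14, an intracellular factor that binds sodium channels, stood at 185, 143, 329 and 272 CPM in the core and 55.7, 65.1, 144 and 165 CPM outside it. Dcc, the receptor for the guidance cue netrin, stood at 26.2, 19.7, 62.4 and 53.6 CPM against 6.36, 10.5, 31.5 and 20.2 CPM. Mmp28, a secreted metalloproteinase, stood at 17.0, 22.2, 22.1 and 18.7 CPM against 4.14, 5.09, 4.11 and 11.2 CPM. For these 3 genes every core value was above the value outside the core in the same library, with the smallest gap in KO-Sham for Fgf14 and Mmp28 and in KO-MI for Dcc.

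Other leading genes had lower levels. Cacna1g, a T-type calcium channel, stood at 46.1, 56.7, 47.9 and 38.6 CPM and Robo1, the receptor for the guidance cue Slit, at 31.8, 47.4, 21.8 and 35.9 CPM, each 1.5-fold or more above the other nuclei, with log2 ratios from 0.66 to 1.03 and from 0.71 to 0.82. Thsd4, a protein of the extracellular matrix, had ratios of 0.88, 0.63, 1.18 and 0.84. The zinc finger gene Zfp60 had 0.73, 0.88, 1.62 and 1.02, and Ftcd, an enzyme of folate metabolism, 1.07, 0.87, 1.44 and 0.71. Stpg2 and the long noncoding RNAs Gm40841, Gm19689 and D830032E09Rik completed the 12 highest. The other 9 of the 21 were Slc16a12, a creatine transporter, Epb41l4b, A730049H05Rik, Prox1os, A330102I10Rik, Gm30382, Gm31600, Gm40038 and Gm44127. Prox1os lies antisense to Prox1 and A730049H05Rik overlaps Adamts9, and the use of strand in the counting is not given, so both are uncertain. Fgf14, Mmp28, Robo1, Thsd4, Stpg2 and D830032E09Rik overlap other annotated genes in the same way. Against its closest neighbours, the nuclei with the final label CM1 and the transferred label CM3, 13 of the 21 genes were higher in the core in all 4 libraries and 4 were at least 1.5-fold higher in all 4. These were Mmp28, Robo1, Thsd4 and Slc16a12, named after their values were seen. The 931 CM3-labelled nuclei are among the 3280 other nuclei against which the 21 genes were chosen. Higher levels were thus partly built in, and the share over all genes was not computed. Fgf14 had log2 ratios of 0.53, 0.14, 0.65 and 0.53 there, and D830032E09Rik of 0.28, -0.08, -0.16 and 0.29. Part of the leading genes thus set the core apart from the other nuclei as 1 group, but not by 1.5-fold in all 4 libraries from these nuclei. Ratios of the leading genes against CM2 alone are not reported here, so the 21 genes are not said to set the core apart from CM2. The conduction system list, which includes Cacna1g, summed to 183, 176, 97.8 and 150 CPM in CM2. In the core it summed to 138, 147, 128 and 110 CPM, which was higher than in CM2 only in WT-Sham.

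**Figure D1:**
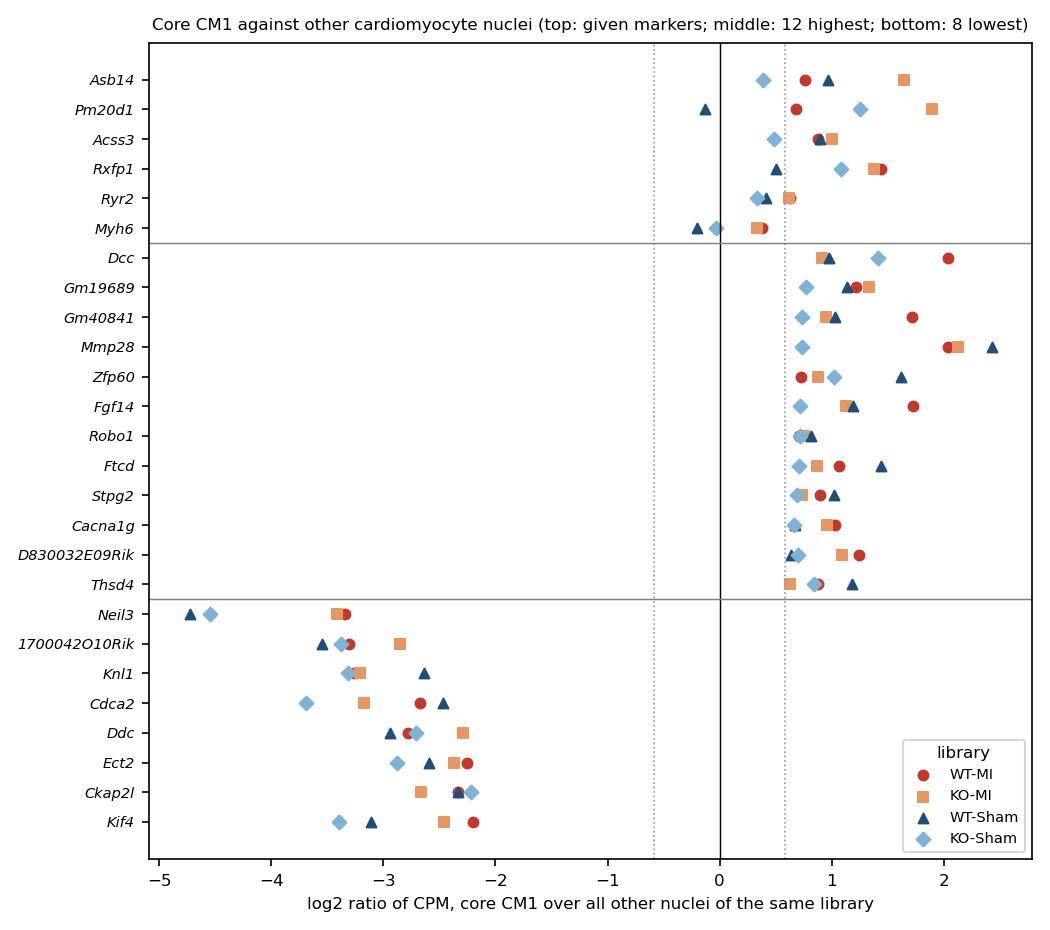
The log2 ratio of CPM in core CM1 over all other nuclei of the same library (x axis) is plotted for each gene (y axis), with 1 point for each of the 4 libraries and dotted lines at 1.5-fold. The 6 given markers (top) straddle the dotted line, the 12 highest genes (middle) lie right of it in all 4 libraries, and the 8 lowest (bottom) lie between -2.20 and -4.73.

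The genes lowest in the core were of 2 kinds. Cell division genes made up the first: Knl1, a kinetochore protein, stood at 3.12, 3.63, 4.82 and 5.51 CPM in the core and 29.9, 33.6, 30.2 and 54.9 CPM outside it, and Neil3, a DNA glycosylase of dividing cells, had log2 ratios of -3.34, -3.41, -4.73 and -4.55. Cdca2, Ect2, Ckap2l and Kif4, which act in mitosis and cytokinesis, had ratios from -2.20 to -3.69. Knl1 stood at 299, 307, 258 and 377 CPM in CM2, the population that carries these genes, and between 2.62 and 5.26 CPM in the nuclei with the final label CM1 and the transferred label CM3. Knl1 therefore separated the core from CM2 and not from these closest neighbours. The cell cycle list summed to 187, 202, 166 and 258 CPM in the core and 191, 199, 178 and 263 CPM in the CM3-labelled nuclei. Its sum was above the core in CM4 too, at 508, 573, 594 and 437 CPM. In CM1 nuclei with the transferred label CM4 it was 482, 537, 340 and 471 CPM.

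Ddc and 1700042O10Rik made up the second kind. Ddc, the decarboxylase that makes dopamine and serotonin from their precursors (chromosome 11, 11814101 to 11898144), stood at 59.0, 79.6, 110 and 105 CPM in the core. In the 931 nuclei with the final label CM1 and the transferred label CM3 it stood at 1165, 1104, 1974 and 1507 CPM, and in CM5 at 166, 127, 249 and 285 CPM. The antisense gene 1700042O10Rik (chromosome 11, 11868123 to 11885321), which lies inside Ddc on the opposite strand, stood at 18.3, 29.0, 30.9 and 31.4 CPM in the core and at 562, 635, 871 and 746 CPM in those 931 nuclei. Since the use of strand in the counting is not given, reads of the 2 genes cannot be told apart. The core and the CM3-labelled nuclei, which the final label joins, thus differed widely at this locus, while their summed levels of the injury list (5869, 6486, 1228 and 1510 CPM in the core, 6132, 6467, 1154 and 1449 CPM in the CM3-labelled nuclei) and of the ion channel list (4971, 4687, 6296 and 5130 CPM, and 4753, 4561, 5713 and 4945 CPM) were close.

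**Figure D2:**
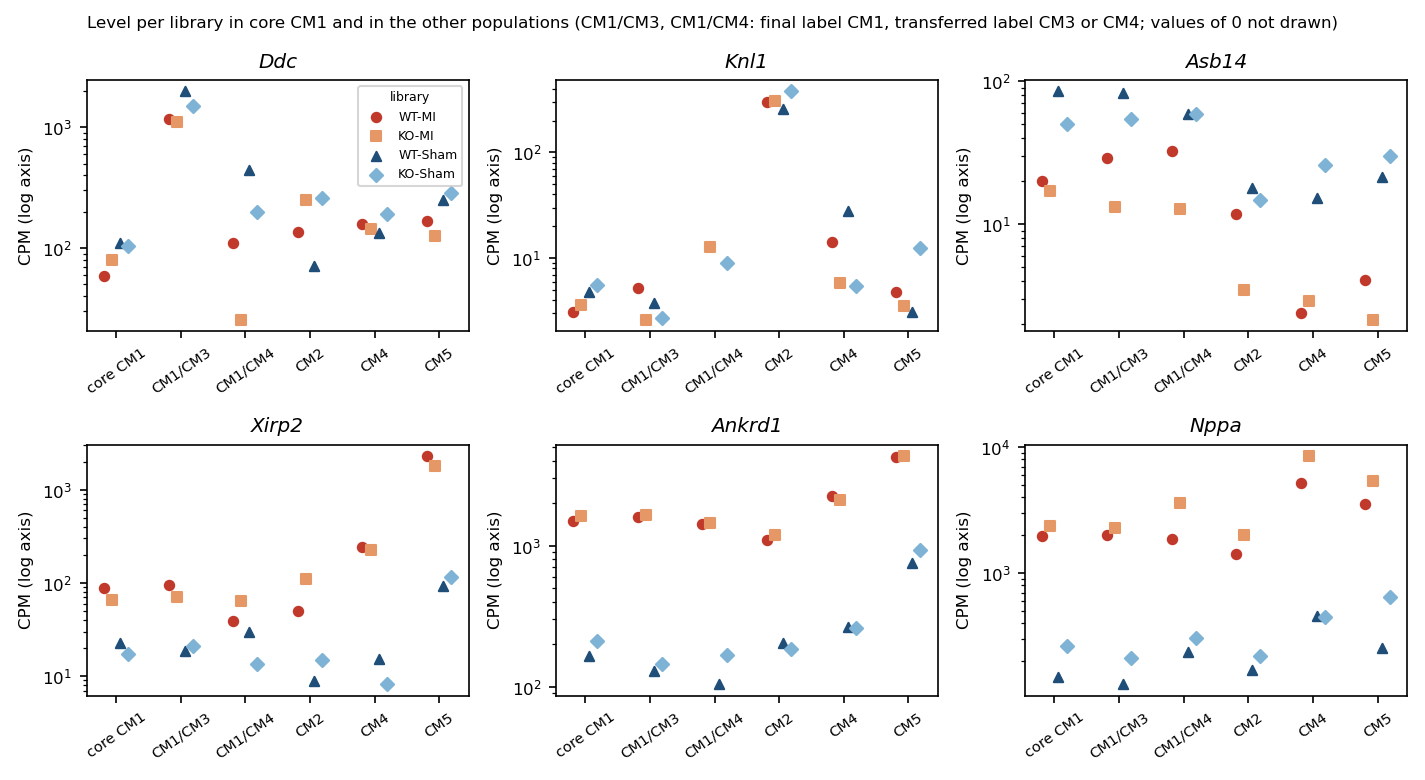
CPM on a log axis of 6 genes in core CM1, in the CM1 nuclei with the transferred label CM3 or CM4, and in CM2, CM4 and CM5, with 1 point for each of the 4 libraries. Ddc is highest in CM1 nuclei labelled CM3 by transfer, Knl1 in CM2 and Xirp2 and Ankrd1 in CM5, and Nppa and Ankrd1 are higher in the MI libraries (circles and squares) in each population.

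By role, ion channel and transcription factor genes were higher in core CM1 than in all other nuclei together. Among all 9914 genes, 19.8% had a log2 ratio above 0 in all 4 libraries and 21.1% one below 0 in all 4, which are the shares to set beside the counts of each list. Of 21 ion channel genes over the minimum, 17 had a log2 ratio above 0 in all 4 libraries and none was below 0 in all, and their median ratios were 0.81, 0.76, 0.58 and 0.25, beside medians of -0.03, -0.04, 0.05 and -0.01 over all genes. Kcnip2, which tunes the transient outward potassium current, had 1.29, 1.24, 0.57 and 0.20, and Kcnj3, a subunit of the acetylcholine-gated potassium channel, had 1.43, 1.05, 0.62 and 0.35. Of 33 cardiac transcription factors and cofactors, 25 were above 0 in all 4 libraries. Ppara, the nuclear receptor for fatty acids, had 0.90, 1.22, 0.63 and 0.22, and Ppargc1a, a coactivator of mitochondrial genes, had 0.87, 0.69, 0.31 and 0.29. In each of these 4 genes the ratio was smallest in KO-Sham. These lists did not set the core apart from every population: the transcription factors summed to 14466, 14063, 16225 and 13678 CPM in the core, 14583, 14048, 16623 and 13559 CPM in the CM1 nuclei with the transferred label CM3 and 14575, 13786, 14941 and 13544 CPM in CM2. Ion channels summed to 4716, 4673, 4871 and 4499 CPM in CM2, near the core in the MI libraries and lower in the Sham libraries. In CM4 both sums were below the core in all 4 libraries, with 2119, 1769, 1886 and 2834 CPM for ion channels.

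Hormone and growth factor receptors (13 of 24 above 0 in all 4 libraries) had medians of 0.21, 0.29, 0.31 and 0.18, and calcium handling genes (7 of 17) of 0.26, 0.25, 0.22 and 0.11. Neither sum was higher in the core than in the CM1 nuclei with the transferred label CM3. Receptors summed to 6158, 6091, 7052 and 5961 CPM there and 6036, 6033, 6686 and 5833 CPM in the core. Calcium handling genes summed to 46976, 44766, 44775 and 37232 CPM there and 45303, 42789, 43674 and 37187 CPM in the core. In CM2 the receptor sum was above the core in all 4 libraries and the calcium handling sum below it. In CM4 both were below it. Among the lists lower in the core, 18 of 18 cell cycle genes were below 0 in all 4 libraries and 12 of them were at least 1.5-fold lower in all 4. Of 17 injury genes 14 were below 0 in all 4, with medians of -0.95, -0.94, -0.63 and -0.36. Of the 78 nuclear genes of the respiratory chain and ATP synthase, 64 were below 0 in all 4, with medians of -0.19, -0.28, -0.73 and -0.22. In CM4 the summed level of the respiratory genes was 50708, 74958, 92149 and 83029 CPM against 22193, 26139, 29208 and 51533 CPM in the core. The sarcomere list had medians of -0.11, -0.20, -0.31 and -0.07. Of its 29 genes 14 were below 0 in all 4 libraries, 2 of them at least 1.5-fold lower, and 5 were above 0 in all 4. The fatty acid list had medians of 0.19, 0.22, -0.14 and -0.03. Of its 36 genes 9 were above 0 in all 4 libraries and 4 below 0 in all 4.

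Core CM1 nuclei also differed among themselves. The CM1 transfer score, a fraction from 0 to 1, had a median of 0.843, 0.837, 0.877 and 0.832, its lowest value was 0.341, and 152 nuclei scored under 0.5. The label with the next highest score was CM3 for 53.0% of core nuclei, CM5 for 25.4%, CM2 for 12.6% and CM4 for 8.99%. The transferred names CM2 and CM5 are crossed relative to the final names: the final CM2 nuclei were mostly transferred as CM5 and the final CM5 nuclei as CM2. Core nuclei with CM3 as next label held the most Ddc, at 89.8, 116, 153 and 155 CPM, against 17.1, 22.7, 47.2 and 54.4 CPM in those with CM5 as next label. Those with CM2 as next label held the most Ankrd1, a titin-associated stress protein, at 2391, 2341, 216 and 356 CPM. Those with CM5 as next label held the most Fgf14, at 317, 296, 550 and 546 CPM, and had the lowest injury sum of the 4 groups in all 4 libraries, at 4934, 5717, 1071 and 1364 CPM. Since the scores were computed from expression, these gradients describe the label and were not tested.

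Of all UMIs in the core, Malat1, a long RNA kept in the nucleus, took 10.8%, mt-Co3 1.69%, the sodium-calcium exchanger gene Slc8a1 1.53%, titin (Ttn) 1.10%, Ryr2 0.806% and the L-type calcium channel gene Cacna1c 0.707%. In nuclei thinned to 1000 UMIs, the ratio of variance to mean over nuclei was 9.40 to 19 across the 4 libraries for Malat1. It was 2.67 to 3.51 for Slc8a1, 2.65 to 4.70 for mt-Co3 and 2.03 to 2.82 for Fhl2, a LIM protein of the Z-disc. Hemoglobin genes were variable as well, with 5.52 to 11.1 for Hba-a1 and 2.78 to 28.8 for Hbb-bs. The 10 nuclei richest in Hbb-bs held 36.4% of its core UMIs in WT-Sham and 34.3% in KO-Sham, so these red cell transcripts were concentrated in a few nuclei there. The near-identical copies Hba-a1 and Hba-a2 share reads, and their separate levels are uncertain.

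The infarction was compared with sham within each genotype label. Of 8496 genes with at least 200 UMIs in the core sums, 568 (6.69%) were at least 1.5-fold higher in WT-MI than in WT-Sham and 828 (9.75%) were lower. In KO-MI over KO-Sham, which shares no library with the former pair, 766 (9.02%) were higher and 761 (8.96%) lower. The higher share of the calls in the first pair was 40.7%, and it became 52.2% with median-of-ratios size factors and 51.7% with TMM factors. In both pairs 373 genes (4.39%) were higher and 361 (4.25%) lower, while 2 genes passed the fold in opposite directions. Over all genes the signs were the same for 70.6%, with Pearson's r of 0.758 and Spearman's rho of 0.663 across genes, which are not independent replicates. The median ratio over all genes was -0.06 in the first pair and 0.05 in the second.

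Injury genes led the higher side. Of 15 injury genes over the minimum, 13 were at least 1.5-fold higher in the first pair and 12 in the second, with none lower and medians of 1.09 and 1.15. Nppa, which encodes atrial natriuretic peptide, stood at 1957, 2367, 149 and 262 CPM, with log2 ratios of 3.71 (3.59 to 3.84) and 3.17 (3.10 to 3.25). Nppb, which encodes brain natriuretic peptide, stood at 729, 823, 42.0 and 108 CPM, with ratios of 4.12 and 2.93. Both natriuretic peptides were high in the MI libraries and low in the Sham libraries, with no overlap, as both MI libraries lay above both Sham libraries for 28.3% of the 8496 genes and below them for 27.5%. Ankrd1 stood at 1498, 1624, 164 and 209 CPM, with ratios of 3.19 and 2.96. Acta1, skeletal α-actin, which the stressed heart is known to re-express, stood at 88.3, 106, 9.93 and 20.4 CPM, with ratios of 3.15 and 2.38. Tnfrsf12a, the receptor for the cytokine TWEAK, stood at 84.4, 104, 22.1 and 36.4 CPM. Bag3, a chaperone cofactor in muscle, stood at 95.4, 91.4, 90.2 and 82.8 CPM and was not past the fold in either pair. Xirp1, Runx1, Atf3, Myc and Mybpc2 were under the minimum and were left out.

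Promoters of injury genes that moved together are shown with that of Myh6, which stood at 5776, 6301, 5070 and 5578 CPM and changed little, with ratios of 0.19 and 0.18. Capitals mark matches on either strand. The M-CAT element, bound by TEAD factors, reads CATTCC. The GATA element was searched as AGATAA. The antioxidant response element was searched as TGACNNNGC, and the CArG box is the site of serum response factor. No match overlapped another here. Each run is on the strand of its gene, from RefSeq on GRCm38.p6, and spans 250 bases before the start site to 30 after it.
Nppb: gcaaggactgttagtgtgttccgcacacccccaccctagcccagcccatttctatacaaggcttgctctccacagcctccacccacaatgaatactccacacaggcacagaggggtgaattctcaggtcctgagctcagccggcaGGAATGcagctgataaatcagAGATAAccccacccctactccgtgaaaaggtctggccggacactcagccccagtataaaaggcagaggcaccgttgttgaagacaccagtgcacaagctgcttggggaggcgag
Ankrd1: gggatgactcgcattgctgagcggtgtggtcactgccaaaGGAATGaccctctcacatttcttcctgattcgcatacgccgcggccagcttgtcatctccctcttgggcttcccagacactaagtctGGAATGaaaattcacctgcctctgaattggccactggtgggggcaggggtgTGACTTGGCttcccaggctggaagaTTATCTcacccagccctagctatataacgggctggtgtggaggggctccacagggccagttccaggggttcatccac
Acta1: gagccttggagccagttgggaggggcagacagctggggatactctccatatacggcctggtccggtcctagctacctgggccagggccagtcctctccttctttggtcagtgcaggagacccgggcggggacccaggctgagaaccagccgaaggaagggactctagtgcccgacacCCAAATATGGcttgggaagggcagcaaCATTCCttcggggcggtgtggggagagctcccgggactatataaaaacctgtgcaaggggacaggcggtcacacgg
Myh6: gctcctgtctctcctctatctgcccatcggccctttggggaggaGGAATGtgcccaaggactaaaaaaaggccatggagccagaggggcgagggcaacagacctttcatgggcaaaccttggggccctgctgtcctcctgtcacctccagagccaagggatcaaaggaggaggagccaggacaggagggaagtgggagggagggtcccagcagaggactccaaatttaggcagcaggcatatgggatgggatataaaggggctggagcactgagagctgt
These windows lie at chr4:147985650-147985929 (plus strand), chr19:36119815-36120094, chr8:123894746-123895025 and chr14:54966578-54966857 (minus strand). All 4 hold an M-CAT element, as do 14.7% of the 32851 mouse promoter windows searched, with Ankrd1 holding 2, and Myh6, which changed little, holds it as the 3 injury genes do. Of the 20 injury genes 18 had a window, and 8 of these held an M-CAT element in at least 1, beside 16.6% of all genes searched. By window it was 9 of 20 (45%), and the difference from all windows was not tested. Nppa and Xirp2, which were among the higher genes, held none. Nppb and Ankrd1 also hold a GATA element (11.2% of windows), Ankrd1 an antioxidant response element (12.4%) and Acta1 a CArG box (1.63%). The MEF2 site (0.557%) was found upstream of Xirp2, whose window is not printed. A match describes letters and not a bound site.

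Most injury genes stood lower in core CM1 than in CM5, in both MI and Sham libraries. The injury list summed to 5869, 6486, 1228 and 1510 CPM in the core and 16151, 18151, 2638 and 3417 CPM in CM5. The core was not lower than CM5 alone, as CM4 held 12263, 16516, 1975 and 1982 CPM. In CM2 the sum was below the core in all 4 libraries. Xirp2, an actin-binding protein of the intercalated disc, stood at 87.3, 65.3, 22.7 and 17.4 CPM in the core and at 2296, 1811, 92.2 and 116 CPM in CM5. Its MI over Sham ratios were 1.94 and 1.91 in the core and 4.64 and 3.96 in CM5. Ankrd1 reached 4261, 4333, 753 and 925 CPM in CM5, with ratios of 2.50 and 2.23, below the 3.19 and 2.96 of the core. Enah, which promotes actin filament growth, stood at 746, 717, 436 and 355 CPM in the core and at 2659, 2556, 772 and 702 CPM in CM5. Ccn2, a matricellular protein induced by YAP and TGF-β, stood at 129, 146, 5.67 and 13 CPM in the core and at 405, 429, 26.7 and 26.0 CPM in the other nuclei. Whether these ratios differ between populations was not tested.

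The highest MI over Sham ratios belonged largely to genes known from myeloid cells. Arg1, which encodes arginase of activated macrophages, gave 28.3 and 18.8 CPM in WT-MI and KO-MI but 3 UMIs in WT-Sham and 1 UMI in KO-Sham, with ratios of 5.05 (3.48 to 7.35) and 6.82 (4.30 to 12.14). Spp1, which encodes osteopontin, stood at 206, 195, 1.42 and 8.18 CPM. Csta2 and Cstdc4, stefins of neutrophils and macrophages, and the chemokine Ccl6 had ratios between 3.32 and 4.35. Timp1, an inhibitor of metalloproteinases that overlaps Syn1, stood at 92.3, 73.0, 4.82 and 8.01 CPM. In the MI libraries the core over other ratios of these 6 genes lay between -0.40 and 0.32, so their level was much alike inside and outside the core. The 12 myeloid markers summed to 595, 318, 161 and 112 CPM in the core and to 675, 365, 191 and 150 CPM outside it, and 5 of the 7 over the minimum were higher in the first pair and 6 in the second. S100a8 stood at 180, 86.4, 20.4 and 17.2 CPM and Tyrobp at 56.3, 33.6, 26.1 and 12.4 CPM. The part of myeloid RNA in these values was not tested.

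**Figure D3:**
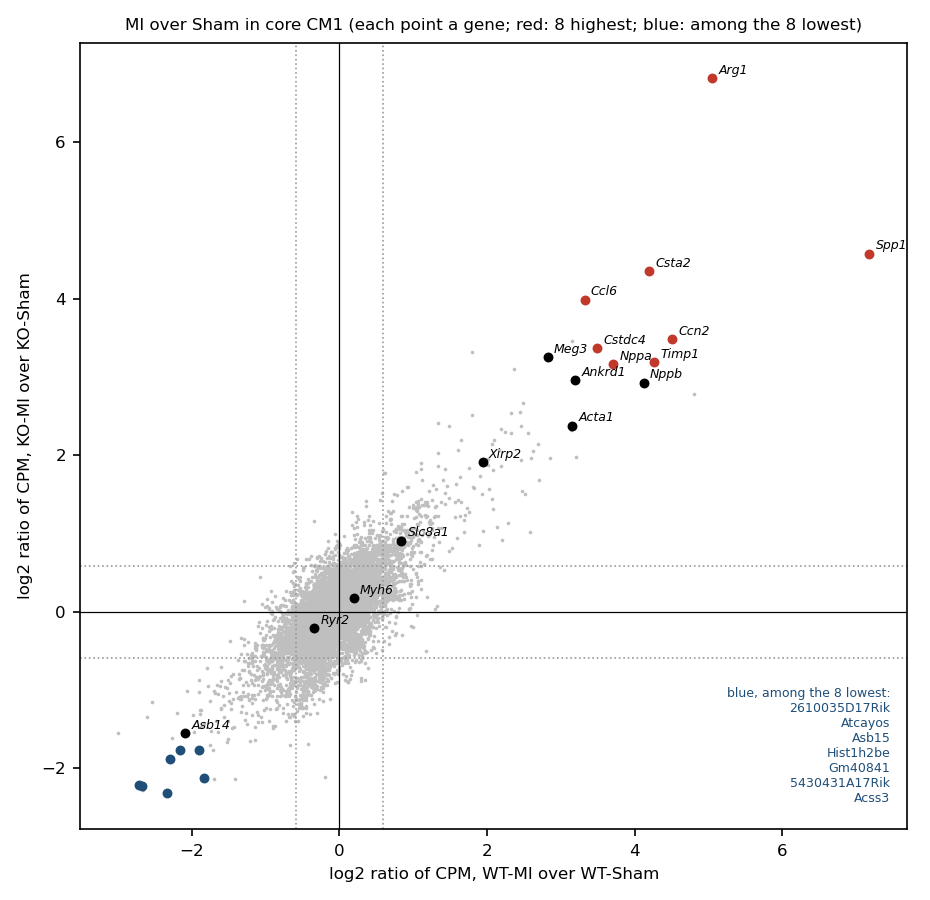
Each point is 1 of 8496 genes in core CM1, with the log2 ratio of WT-MI over WT-Sham on the x axis, that of KO-MI over KO-Sham on the y axis and dotted lines at 1.5-fold. The 8 highest genes (red), among them Arg1 and Spp1, and the genes drawn in blue, which are among the 8 lowest and include Acss3 and Asb15, lie far out in both pairs, while Myh6 and Ryr2 lie inside the dotted lines.

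Long RNAs kept in the nucleus were higher as well, with Meg3, Rian, Neat1 and Xist, 4 of 6, past the fold in each pair. Meg3 stood at 310, 379, 44.0 and 39.7 CPM and Rian, transcribed from the same imprinted locus, at 62.3, 57.6, 13.6 and 11.4 CPM. Neat1, the scaffold RNA of paraspeckles, stood at 351, 286, 155 and 122 CPM. Slc8a1, one of the most abundant messages of the core, stood at 20840, 19074, 11640 and 10164 CPM, with ratios of 0.84 (0.82 to 0.86) and 0.91 (0.89 to 0.92), and Myh7, the fetal myosin, at 632, 881, 369 and 314 CPM. All of these were higher in both MI libraries than in both Sham libraries. The 4 Y-linked genes were at the same time lower in both pairs, with medians of -1.04 and -1.02, so the MI and Sham pools also differed in their make-up of males and females, whose part in these values was not tested.

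Genes of fatty acid use were lower in the MI libraries. Of 36 such genes 20 were at least 1.5-fold lower in the first pair and 23 in the second, 16 in both, and none was higher, with medians of -0.63 and -0.71. Fabp3, the heart fatty acid binding protein, stood at 1482, 1846, 2760 and 5198 CPM. Hadha, a subunit of the mitochondrial trifunctional protein, stood at 304, 387, 608 and 623 CPM, and Ucp3, a mitochondrial carrier, at 21.2, 31.1, 79.1 and 56.9 CPM. All 3 were lower in both MI libraries, as 27.5% of all genes were. Cpt1a and Cpt1b, which bring long fatty acids into mitochondria, were less far apart, with ratios of -0.50 and -0.26 and of -0.36 and -0.41. Of 78 respiratory chain genes 8 were lower past the fold in the first pair and 69 in the second, where the Sham library is the one with the highest mitochondrial share, and 8 in both.

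Markers of the core were among the genes that were lower. Asb14 had MI over Sham ratios of -2.09 (-2.44 to -1.75) and -1.55 (-1.93 to -1.18), Acss3 of -2.16 and -1.77 and Pm20d1 of -1.18 and -0.63, whereas Rxfp1 had 0.47 and 0.49 and Ryr2 -0.34 and -0.21. Of the 6 markers, 3 were thus at least 1.5-fold lower in both MI libraries in nuclei that carry both CM1 labels. Asb15, a paralog of Asb14, stood at 4.36, 3.85, 28.6 and 17.9 CPM, and the long RNA Gm40841, one of the genes leading the core, at 46.1, 32.7, 164 and 142 CPM. Atcayos stood at 79.8, 88.9, 506 and 417 CPM and overlaps Nmrk2, a kinase of NAD synthesis, so its level is uncertain. The histone gene Hist1h2be and the long RNAs 2610035D17Rik and 5430431A17Rik were also among the 8 lowest.

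Channel, ventricular and mature genes were lower in part. Of 19 ion channel genes, 9 were lower past the fold in the first pair and 5 in the second. Kcnd2, a subunit of the transient outward channel, stood at 233, 226, 502 and 430 CPM, Kcnip2 at 46.5, 38.3, 104 and 70.1 CPM, and Abcc9, the sulfonylurea receptor, at 193, 184, 375 and 290 CPM. All 3 were lower in both MI libraries. Hey2, a repressor of atrial genes in the ventricle, stood at 49.9, 38.8, 113 and 97.0 CPM and Irx4 at 25.6, 29.0, 45.9 and 43.9 CPM. Of 14 genes of the mature cardiomyocyte 4 were lower past the fold in both pairs, among them myoglobin (Mb), at 330, 383, 731 and 1194 CPM, and Myom2, an M-band protein, at 157, 133, 307 and 248 CPM. The sarcomere list was mixed, with 7 of 29 genes higher and 3 lower in the first pair and 6 higher and 7 lower in the second.

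**Figure D4:**
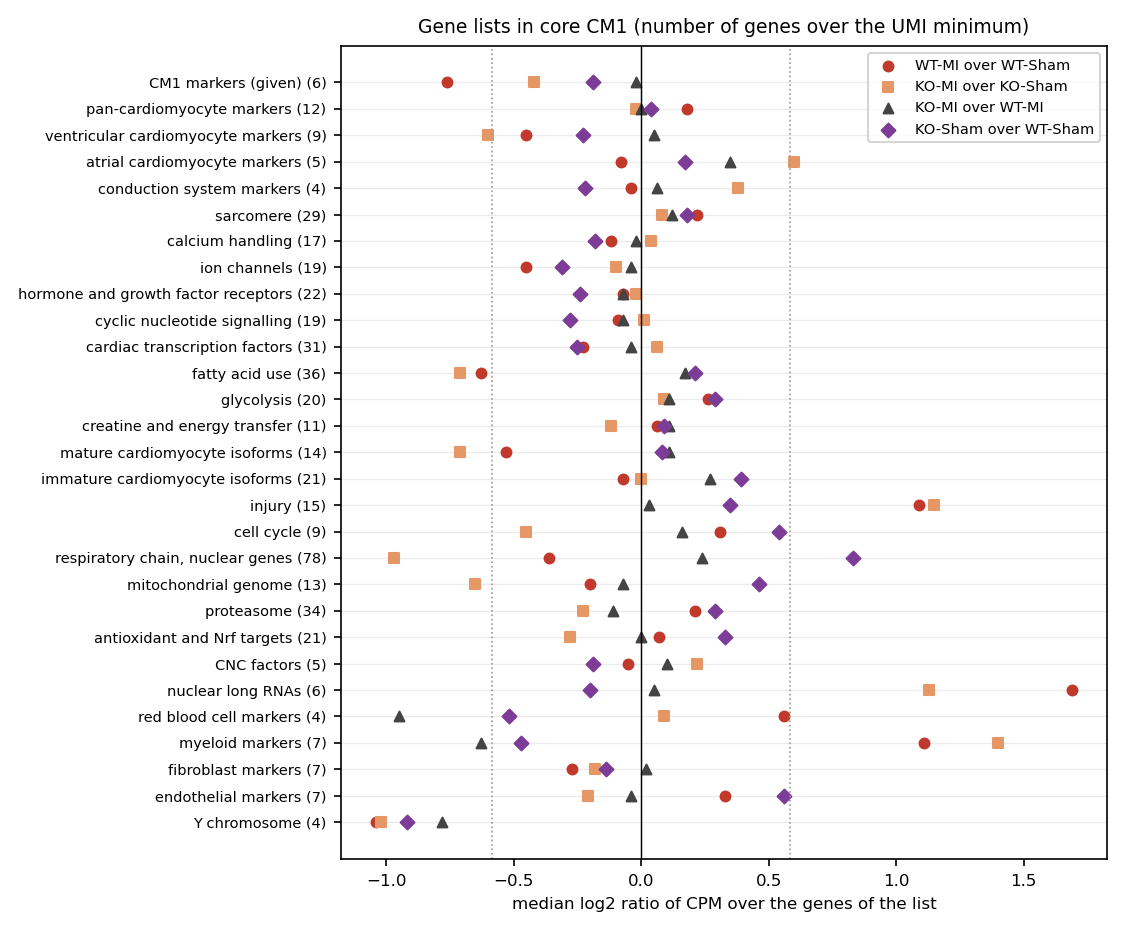
The median log2 ratio over the genes of a list in core CM1 (x axis) is plotted for each list (y axis, with the number of genes over the minimum), with 1 symbol for each of the 4 pairs of libraries and dotted lines at 1.5-fold. The injury list lies at 1.09 and 1.15 for MI over Sham and near 0 for KO-MI over WT-MI, and the respiratory chain list lies at 0.83 for KO-Sham over WT-Sham.

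The genotype labels were compared within each surgery. Between the library labelled KO-MI and that labelled WT-MI, 105 of the 8496 genes (1.24%) were higher past 1.5-fold and 73 (0.859%) lower. Between the library labelled KO-Sham and that labelled WT-Sham, 498 (5.86%) were higher and 239 (2.81%) lower. The higher share of the calls was 59.0% and 67.6%, and with median-of-ratios size factors 48.8% and 85.5%. Only 15 genes (0.177%) were higher and 19 (0.224%) lower in both pairs, and 3 passed the fold in opposite directions. The signs were the same for 58.6% of genes, with r of 0.303 and rho of 0.295 across genes. The 2 pairs share no library.

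Among the 19 genes lower in both pairs were 2 linked by background knowledge to antioxidant response elements. Me1, malic enzyme, a source of NADPH and a known target of antioxidant response elements, stood at 34.1, 18.4, 29.5 and 16.7 CPM. Its log2 ratios were -0.89 (-1.29 to -0.50) in the MI pair and -0.82 (-1.23 to -0.41) in the Sham pair. Mafg, a small Maf protein that pairs with cap'n'collar factors on these elements, stood at 42.6, 26.3, 25.2 and 14.7 CPM, with ratios of -0.70 and -0.78. Mafg overlaps Sirt7 and Me1 overlaps 2 noncoding or predicted genes, so their levels are uncertain. In CM4 the ratios of Me1 were -1.63 (-3.41 to -0.16) and -1.06 (-2.63 to 0.49), in the CM1 nuclei with the transferred label CM3 -1.12 (-2.24 to -0.08) and -0.57 (-1.59 to 0.49), and in CM5 -0.12 (-0.66 to 0.42) and 0.62 (-1.10 to 2.71). Those of Mafg were -0.64 and -0.10 in CM4, -0.57 and -1.16 in the CM3-labelled CM1 nuclei and 0.17 and 0.62 in CM5, with intervals that all include 0. Whether the populations differ was not tested. The promoters of both are shown, as above, with antioxidant response elements in capitals.
Me1: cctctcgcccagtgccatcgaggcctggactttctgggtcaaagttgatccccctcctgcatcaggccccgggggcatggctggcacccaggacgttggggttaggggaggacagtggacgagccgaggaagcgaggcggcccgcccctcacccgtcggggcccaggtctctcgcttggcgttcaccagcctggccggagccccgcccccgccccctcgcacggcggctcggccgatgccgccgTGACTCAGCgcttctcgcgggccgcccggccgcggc
Mafg: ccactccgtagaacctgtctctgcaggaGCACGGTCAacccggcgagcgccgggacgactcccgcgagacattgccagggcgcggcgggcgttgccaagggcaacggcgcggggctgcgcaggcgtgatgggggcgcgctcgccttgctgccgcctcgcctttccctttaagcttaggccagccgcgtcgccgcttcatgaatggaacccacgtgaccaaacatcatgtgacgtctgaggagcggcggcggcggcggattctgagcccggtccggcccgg
The windows lie at chr9:86695885-86696164 and chr11:120633518-120633797 (minus strand). The match of Me1 reads TGACTCAGC and begins 6 bases before the start site, and that of Mafg, GCACGGTCA, lies 222 bases before it on the opposite strand. A further start site annotated for Me1 holds none. No antioxidant response element was found in the windows of Psmd1 and Nfe2l1. The element was found in 12.4% of all windows searched. Ankrd1 holds it too, and had log2 ratios of 0.12 in the MI pair and 0.35 in the Sham pair. A match does not show that the gene responds to Nrf1.

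Psmd1, Psme4 and Hmox1 moved less than Me1 and Mafg. Psmd1, a subunit of the regulatory particle of the proteasome, stood at 110, 76.4, 85.1 and 67.9 CPM, with ratios of -0.52 (-0.73 to -0.32) and -0.32 (-0.54 to -0.10), both under 1.5-fold, and 4 annotated genes overlap it. Psme4, an activator of the proteasome, stood at 241, 176, 243 and 178 CPM, with ratios of -0.46 and -0.45. Hmox1, heme oxygenase, stood at 13.1, 9.52, 4.25 and 3.34 CPM, with ratios of -0.46 (-1.06 to 0.13) and -0.35 (-1.39 to 0.72), whose intervals include 0. In CM4 the ratios were -1.07 (-1.92 to -0.28) and -0.19 (-0.83 to 0.47) for Psmd1, and -2.17 (-4.16 to -0.61) and 0.92 (-1.47 to 4.22) for Hmox1. Over 34 proteasome genes the medians were -0.11 and 0.29, with no gene past the fold in the MI pair and 7 higher in the Sham pair. Over 21 antioxidant genes the medians were 0.00 and 0.33, with 1 lower in the MI pair, Gclm of glutathione synthesis at 34.9, 22.7, 23.0 and 29.4 CPM, and 6 higher in the Sham pair. Neither list held a gene past the fold in the same direction in both pairs.

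Energy genes were higher in the library labelled KO-Sham. Of the 78 respiratory chain genes 65 were at least 1.5-fold higher in KO-Sham than in WT-Sham and none in KO-MI over WT-MI, with medians of 0.83 and 0.24. Their sums were 22193, 26139, 29208 and 51533 CPM, so KO-Sham stood above the other 3 libraries. KO-Sham was also above WT-Sham in CM1 nuclei with the transferred label CM3 (53284 and 29060 CPM), CM2 (44778 and 27935) and CM5 (54514 and 34048). In CM4 it was below, at 83029 against 92149 CPM. In the core Cox6a2, the muscle form of a cytochrome oxidase subunit, stood at 530, 621, 767 and 1435 CPM, and Fabp3, given above, was highest in KO-Sham too. The mitochondrial genome had medians of -0.07 and 0.46. KO-Sham nuclei also had the fewest UMIs, with a median of 2653, and the highest mitochondrial share, 8.66%. The part of depth and mitochondrial share in these values was not tested. The Sham median of the respiratory list was 0.82 after thinning and 0.80 in nuclei with at most 10% mitochondrial UMIs.

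The remaining genes that differed by label in both pairs included sex-linked genes and markers of other cells. Xist, the RNA of the inactive X chromosome, stood at 1011, 1602, 169 and 788 CPM and was higher in both libraries labelled KO. The Y-linked genes Uty (75.6, 31.7, 168 and 88.0 CPM), Kdm5d, Ddx3y and Eif2s3y were lower in both, so the pools differed in their make-up of males and females. Cetn2, also higher, is X-linked. Of 7 myeloid genes 5 were lower in the MI pair and 3 in the Sham pair, and Tyrobp, C1qb, Ccl6, Ctss, Csta2 and Cstdc4 were among the 19 lower genes. The red cell list summed to 3881, 2035, 2682 and 1915 CPM, and Hbb-bt was lower in both pairs. Sex, myeloid RNA and red cell RNA differ together with the genotype label and cannot be told apart from it here.

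**Figure D5:**
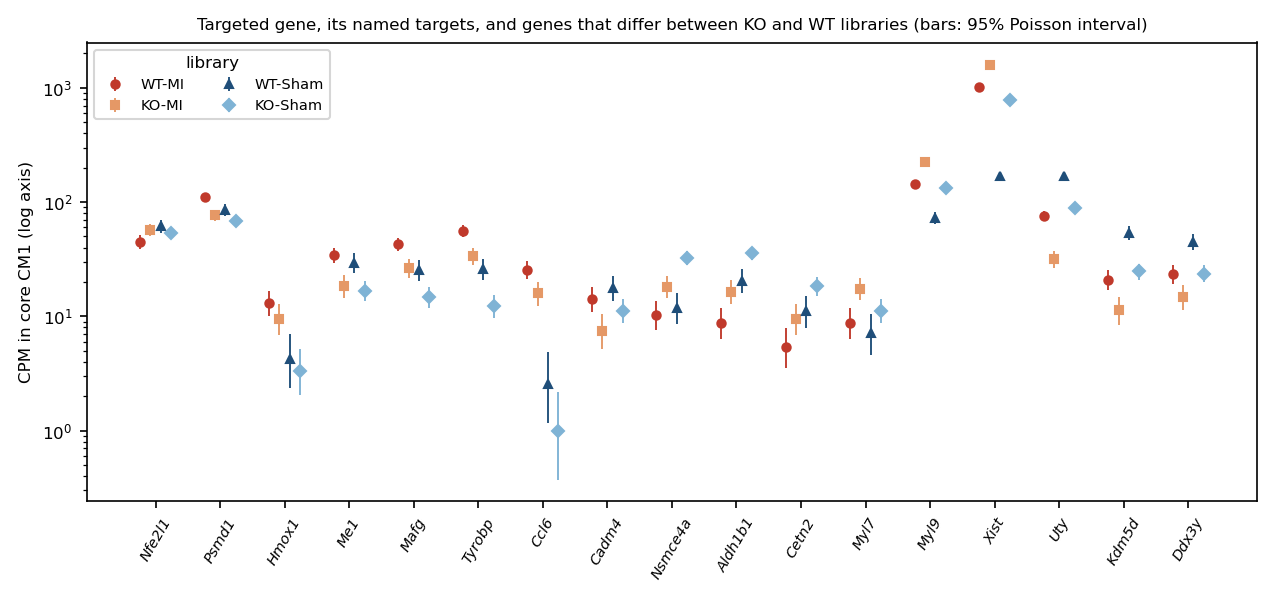
CPM in core CM1 on a log axis with 95% Poisson intervals for Nfe2l1, Psmd1, Hmox1 and 14 genes that differ by genotype label, with 1 point for each of the 4 libraries. Me1 and Mafg are lower in both libraries labelled KO within each surgery, Nfe2l1 is higher in KO-MI than in WT-MI, and Xist and the Y-linked genes at the right differ by label.

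Myosin light chains were on the higher side. Myl7, given above, had a ratio in the MI pair with an interval of 0.44 to 1.58, and one of 0.66 (-0.02 to 1.38) in the Sham pair, and Myl4, the other atrial light chain, at 13.9, 34.5, 14.7 and 22.7 CPM, had 1.31 and 0.62. Outside the core Myl7 stood at 11.1, 90.5, 6.17 and 11.6 CPM and Myl4 at 33.7, 101, 24.0 and 26.0 CPM, so the library labelled KO-MI held the most of both in other nuclei as well. The summed atrial list was 192, 241, 254 and 229 CPM in the core and 434, 1720, 220 and 234 CPM in CM4. Myl9, a smooth muscle light chain, stood at 144, 225, 72.6 and 133 CPM, with ratios of 0.65 (0.50 to 0.79) and 0.88 (0.67 to 1.09). Aldh1b1, a mitochondrial aldehyde dehydrogenase, stood at 8.73, 16.3, 20.4 and 35.7 CPM. 9330158H04Rik overlaps Chrm2 and Nsmce4a overlaps Fgfr2, so these 2 are uncertain. The injury list differed little between the library labelled KO-MI and that labelled WT-MI, with a median of 0.03 and no gene past the fold, and 6 of 15 injury genes were higher in the Sham pair.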

How the data were processed

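Nuclei of 4 libraries were profiled with the 10x 3′ chemistry (v2 in the labels, v3 in the methods). The authors aligned reads with Cell Ranger to a GRCm38 pre-mRNA reference, removed Scrublet doublets and nuclei outside 200 to 2500 genes, kept cardiomyocyte clusters and transferred labels with Seurat. They deposited raw UMI counts per gene and nucleus (22574 genes, 8585 nuclei), the percent of mitochondrial UMIs and transfer scores as a fraction, and 5 deposited columns were not used. Settings beyond these are not given in the sources used here.

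Core CM1 nuclei were selected by the 2 labels. Counts were summed per library and given as CPM with exact 95% Poisson intervals, log2 ratios with conditional binomial intervals and shares with Clopper-Pearson intervals, which cover counting error only. CPM is relative: a change in an abundant RNA moves all others. Between libraries, genes with at least 200 UMIs in the core were compared, and against other nuclei genes with at least 200 UMIs in all nuclei. Called means past 1.5-fold (0.585 on the log2 scale), with no test. The members, the 31 gene lists (522 genes) and the alternatives were chosen with earlier results of these data known.

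Genes named were the given markers, the 12 highest and 8 lowest in the core by the least extreme library, the 8 highest and 8 lowest of each contrast by the less extreme pair, the 10 with most UMIs, the 10 most variable, list members, and Nfe2l1, Psmd1 and Hmox1. Some genes that the rule names are not reported here. Other genes that complete a count were named after their values were seen. For WT-MI over WT-Sham, counts of 8496 genes were simulated, and 95.6% of the intervals included the ratio that had been set. The intervals cover counting error only, so this checks their calculation and not the spread among real nuclei. That spread was larger than counting error for genes such as Malat1 and Slc8a1, as given above. Gene positions came from GENCODE M21. Promoter windows (RefSeq, GRCm38.p6) were looked up for 26 genes and found for 17, and motifs were searched from 250 bases before to 50 after the start. Windows on chromosome 18, where Dcc lies, were left out of this search and of the shares over all windows, but not of the count over injury genes. Python 3.11.15, pandas 2.3.3, scipy 1.17.1 and, for TMM factors as an alternative, edgeR 4.0.16 were used.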

Additional observations from a re-analysis of the deposited data

Results flagged for a closer look

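Some results had opposite signs in pairs of libraries under the same contrast. No difference between pairs was tested, since each group is 1 library. For MI over Sham in core CM1, the median log2 ratio was -0.23 in the pair labelled WT and 0.06 in the pair labelled KO for cardiac transcription factors, 0.31 and -0.45 for cell cycle genes, 0.21 and -0.23 for proteasome genes, and 0.33 and -0.21 for endothelial markers. Pclo, a presynaptic scaffold gene, had -0.67 and 0.59, and the long RNA Gm26724 had -0.62 and 0.62.

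Between the libraries labelled KO and WT, the mitochondrial genome had medians of -0.07 after MI and 0.46 after Sham, and proteasome genes -0.11 and 0.29. Pclo had 0.59 and -0.67, Gm20619 0.66 and -0.73, and Gm26549 0.92 and -0.60. Nuclei of KO-Sham, which enters 1 side of every such contrast, had the fewest UMIs and the highest mitochondrial share, and their part in these values was not tested.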

How the results depend on the processing

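Of 610 single-gene ratios past 1.5-fold, all kept their direction under each alternative that gave a value, and 573 stayed past the fold with TMM factors and 571 with size factors. The cause of the changes below was not tested, except that fewer counts (thinning) or more genes (a minimum of 50 UMIs) change how many genes can be counted. Genes higher in the core in all 4 libraries numbered 21, and 13 after thinning to 1000 UMIs, 46 at a minimum of 50 UMIs, 114 by the final label alone, 41 at a transfer score of at least 0.8 and 10 at most 10% mitochondrial UMIs. Leaving out 1 library gave 26 to 120. Genes lower in the core numbered 95, and 17 thinned, 184 at 50 UMIs, 154 by the final label, and 115 to 175 with 1 library left out.

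Thinned and at 50 UMIs, the counts for WT-MI over WT-Sham became 273 and 1178 higher and 410 and 1703 lower, for KO-MI over KO-Sham 384 and 1387 higher and 439 and 1410 lower, and for KO-MI over WT-MI 69 and 528 higher and 47 and 420 lower. For both MI pairs together they became 166 and 686 higher and 180 and 696 lower. At 50 UMIs KO-Sham over WT-Sham gave 917 higher and 753 lower, and its lower count was 117 with size factors and 109 with TMM. Both genotype pairs together gave 73 higher and 99 lower at 50 UMIs, 9 lower thinned and 12 lower with TMM.

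The share of core nuclei was 70.6%, 70.8%, 78.1% and 78.7% by the final label alone, 35.7%, 34.4%, 46.6% and 37.4% at a score of at least 0.8, and, among nuclei with at most 10% mitochondrial UMIs, it became 61.8% (WT-MI), 76.8% (WT-Sham) and 68.3% (KO-Sham). The median of mural cell markers in KO-MI over KO-Sham, -0.62, became 0.09 thinned and 0.04 at a score of at least 0.8. No paired analysis was possible because each group is 1 library.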
